A study of Mus musculus with 2 samples.

Results

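The genes described here encode the enzymes and transporters that carry glucose to pyruvate and lactate, the pentose phosphate pathway and the entry of pyruvate into mitochondria. They were chosen by name as 36 symbols, and all 36 were found once each among the 41592 genes of the deposited table. RNA-seq had been done on CD4+ T cells of a pair of sorted populations, each represented by 1 library. The mice were C57BL/6 animals, 6 to 8 weeks old, of the genotype Foxp3 dCNS1-Cre-R26-YFP, and gave spleen and lymph node cells that were enriched for CD4 with beads and sorted for YFP, to a stated purity above 97%. In such mice Cre is driven by Foxp3 regulatory DNA without the CNS1 element and switches on YFP at the Rosa26 locus in the cell and its progeny, so YFP records past as well as present activity. The populations differed in Thy1.1 staining and are called Thy1.1- and Thy1.1+ cells. The question behind the series is how regulatory T (Treg) cells from the thymus differ from precursors of exFoxp3 cells. Its design text assigns identical markers to both, so neither name is used. How many animals were pooled is not given in the sources used here. The columns of the table were read as negative and positive from the letters N and P in their names.

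Glycolysis splits glucose into pyruvate in the cytosol and yields ATP. Pyruvate is then reduced to lactate and exported, or carried into mitochondria and turned into acetyl-CoA by pyruvate dehydrogenase, which pyruvate dehydrogenase kinases switch off. The pentose phosphate pathway branches off after the first phosphorylation of glucose and supplies NADPH and ribose for nucleotides. T cells that are activated and divide are known for high glycolysis, while resting Treg cells are known to draw more on oxidative metabolism.

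With 1 library per population there is no replicate error, no test and no p-value. Levels are FPKM, fragments per kilobase of gene, scaled to the counted fragments of the library. Ratios are Thy1.1- over Thy1.1+ FPKM and carry 95% counting intervals (exact Clopper-Pearson) from the whole reads behind the values, which cover counting error only and compare these libraries, not the populations. The libraries held 18536339 and 18600581 counted reads. Differences are log2(FPKM + 1), Thy1.1- minus Thy1.1+, and a gene was counted as 2-fold higher or lower at a difference of at least 1 in size when its mean FPKM was at least 1. The pseudocount understates changes of low genes.

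Most of the 36 genes stood moderately higher in Thy1.1- cells, and the enolases Eno2 and Eno3, the lactate dehydrogenase subunit Ldhb and the lactate exporter Slc16a3 stood lower. All 36 passed the filter on mean FPKM. Of these, 32 had a difference above 0, against 55.1% of the 12820 genes that passed. The median difference was 0.25, beside 0.03 over all genes. None of the 36 was 2-fold higher, where 1.93% of all genes were, and 1 was 2-fold lower, where 1.15% were. That gene was Eno3, the muscle-type enolase. At 1.5-fold, Tpi1, Pgam1 and Pgk1 were higher (5.81% of all genes) and Eno3 and Slc16a3 were lower (3.85% of all genes). After the upper quartile rescaling described below 13 were higher and the same 2 lower, while centring on the median gene, leaving out the 100 highest genes or a pseudocount of 5 kept Tpi1 alone as higher. On this scale Aldoc and Eno2, at low levels, missed 1.5-fold although their FPKM ratios passed it. The counting interval lay above 1 for 22 of the 36 and below 1 for 4, while 27.4% and 19.2% of all genes did so. Among abundant genes, at 20 FPKM or more on average (a limit chosen after the data were seen), 24 of 27 had a difference above 0, against 54.8% of 5115 genes. By role, the median difference was 0.07 for glucose uptake, 0.25 for upper and 0.36 for lower glycolysis, -0.10 for the lactate branch, 0.31 for pentose phosphate and 0.11 for pyruvate entry. Under the upper quartile rescaling the lactate branch turned, to 0.14. Summed FPKM over the 36 genes was 4115 in Thy1.1- and 3335 in Thy1.1+ cells, a ratio of 1.23.

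Scaling sets the level of all these ratios. Rescaling by the upper quartile of values above 0 shifted the all-gene median by 0.23, to 0.26, and brought the median of the 36 genes to 0.49. The distance of the 36-gene median to the all-gene median was 0.22 as deposited and 0.24 after that rescaling, and 0.22 after each of the other 3 rescalings. Each rescaling applies a common factor or shift to all genes. This distance could therefore change only through the pseudocount, and its steadiness is no check of the scaling. The same 4 genes, Eno2, Eno3, Ldhb and Slc16a3, lay below 0 with the deposited values and after the upper quartile rescaling. The rescaling multiplies every ratio by 1.19, so genes described below as level with the deposited values stood higher under it. Dlat joined the 4 below 0 after centring on the median gene or leaving the 100 highest genes out of the sum.

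**Figure D1:**
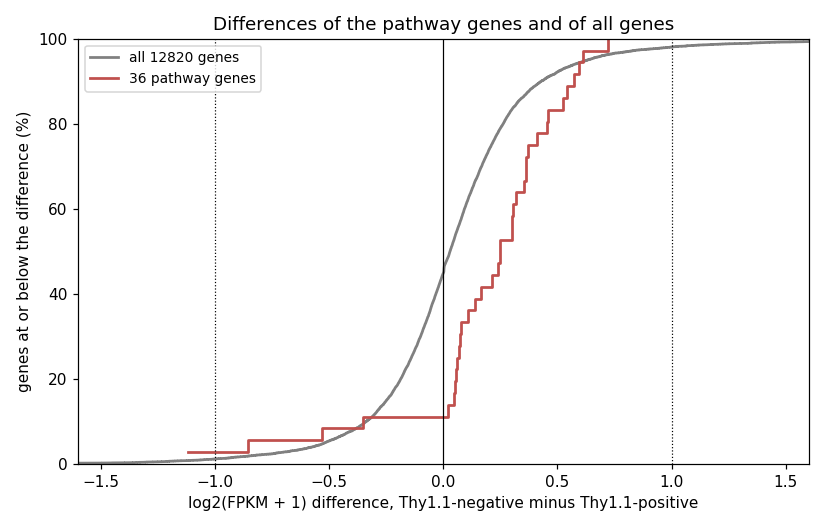
Cumulative share of genes (y axis, %) by log2(FPKM + 1) difference (x axis) for the 12820 genes that passed the filter (grey) and the 36 pathway genes (red), with dotted lines at 2-fold. The red curve starts at -1.12 with Eno3, crosses 0 after 4 genes and ends at 0.72 with Tpi1.

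Markers of cell types and of dividing cells differed between the libraries too. All 6 genes listed as CD4 T cell markers stood higher in Thy1.1- cells, with ratios from 1.18 for Cd3e to 1.44 for Cd4 and summed levels of 2668 against 2012 FPKM. All 12 proliferation markers did as well, 9 of them at least 2-fold, where 55.1% and 1.93% of all genes did so. Their summed levels were 474 against 295 FPKM, with 13.5 against 1.49 FPKM for Mki67, the Ki-67 antigen. Of the 5 Treg markers, 4 stood lower, where 44.9% of all genes did, and Ctla4 was nearly level. Foxp3 stood at 158 against 237 FPKM. After the upper quartile rescaling 3 of the Treg markers stood lower and Ikzf2 turned. Markers of B cells summed to 14.3 against 9.12 FPKM with 5 of 6 differences above 0. Myeloid markers summed to 5.44 against 1.94 FPKM with 4 of 6 above 0. Over all genes that passed the filter the share above 0 was 55.1%. In both libraries 3 of the 6 B cell markers and 5 of the 6 myeloid markers were under 1 FPKM, so their signs rest on few reads. Itgam alone gave 4.17 against 0.272 FPKM of the myeloid sum. The natural killer cell marker Ncr1 was listed at 0 in Thy1.1- cells and the platelet marker Ppbp in Thy1.1+ cells. Summed levels were 66.6 against 53.2 FPKM for dendritic, 87.0 against 64.3 for stromal and endothelial, 160 against 171 for plasma cell, 4.78 against 4.49 for CD8 T cell and 4.43 against 3.80 for natural killer cell markers. The dendritic sum was mostly Cst3, at 63.5 against 50.1 FPKM. The stromal and endothelial sum was mostly Pecam1, at 84.8 against 63.5 FPKM. The plasma cell sum was mostly Xbp1, at 141 against 161 FPKM. Of the 5 plasma cell markers 2 were above 0, namely Prdm1 at 15.01 against 6.62 FPKM and Sdc1 at 3.51 against 2.06 FPKM. Jchain and Mzb1 lay below 0 like Xbp1, and both were under 1 FPKM in both libraries. Of the 4 natural killer cell markers, Klrb1c alone stood higher, at 2.08 against 0.445 FPKM. The part of proliferating cells, of other cells or of total T cell RNA in the values below was not tested. In bulk samples more cells of a type and more RNA per cell cannot be told apart.

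Glucose uptake transcripts were nearly level. Slc2a1, which encodes GLUT1, the main glucose transporter induced in activated T cells, stood at 66.5 FPKM in Thy1.1- and 63.3 FPKM in Thy1.1+ cells, a ratio of 1.05 (0.979 to 1.13). Slc2a3, which encodes the high-affinity transporter GLUT3, stood at 66.1 and 63.2 FPKM, a ratio of 1.04 (0.983 to 1.11). The ratio of Slc2a1 to Slc2a3 in FPKM was 1.01 in Thy1.1- and 1.001 in Thy1.1+ cells, but it depends on the gene lengths used, as given below.

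The first steps after uptake divided by enzyme. Hk1, the ubiquitous hexokinase that traps glucose as glucose 6-phosphate, stood at 169 and 132 FPKM, a ratio of 1.28 (1.22 to 1.34). Hk2, the inducible hexokinase, was far less abundant at 12.9 and 10.7 FPKM, with a similar ratio of 1.21 (1.07 to 1.37). Gpi1, the isomerase that makes fructose 6-phosphate, stood at 238 and 205 FPKM, a ratio of 1.16 (1.12 to 1.201). All 3 intervals lay above 1. At phosphofructokinase, the committed step of glycolysis, none of the 3 intervals did. Pfkp, the platelet-type subunit and the leading one here, stood at 156 and 150 FPKM, a ratio of 1.04 (0.997 to 1.08). Pfkl, the liver type, stood at 61.5 and 58.1 FPKM (0.984 to 1.14). Pfkm, the muscle type, stood at 5.25 and 4.95 FPKM (0.893 to 1.26). These intervals reach at most 1.26 and come with no replicate, so they do not show equality.

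The largest ratios of glycolysis were among the enzymes that follow. Aldoa, the aldolase that splits fructose 1,6-bisphosphate, stood at 243 FPKM in Thy1.1- and 169 FPKM in Thy1.1+ cells, a ratio of 1.44 (1.38 to 1.505). Its minor isoenzyme Aldoc stood at 5.44 and 3.34 FPKM from 117 and 72 reads, a ratio of 1.63 (1.21 to 2.22). Tpi1, which interconverts the resulting triose phosphates, had the largest difference of the 36 genes. It stood at 94.5 and 56.9 FPKM, a ratio of 1.66 (1.52 to 1.82) and a difference of 0.72. Gapdh, often used as a housekeeping reference, was the most abundant member in both libraries at 1075 and 836 FPKM, and its ratio was 1.28 (1.25 to 1.32). Pgk1, the first ATP-yielding enzyme, stood at 95.2 and 62.8 FPKM, a ratio of 1.52 (1.42 to 1.61). Pgam1, phosphoglycerate mutase, stood at 41.8 and 26.98 FPKM, a ratio of 1.55 (1.43 to 1.69). Pkm, the pyruvate kinase that ends the pathway, stood at 337 and 260 FPKM, a ratio of 1.30 (1.27 to 1.33).

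**Figure D2:**
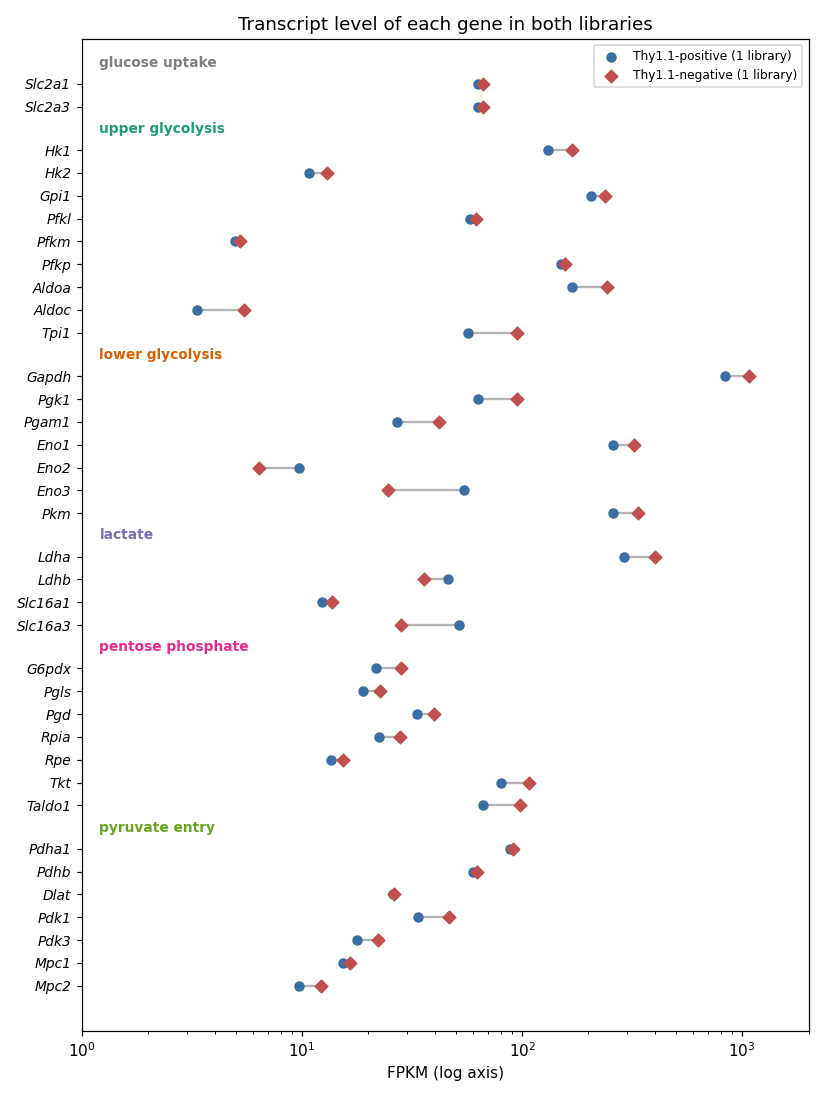
FPKM (x axis, log scale) of each of the 36 genes, by role, in Thy1.1- (red diamonds) and Thy1.1+ cells (blue circles), 1 library each. Levels run from 3.34 FPKM for Aldoc to 1075 FPKM for Gapdh, and the diamond lies left of the circle for Eno2, Eno3, Ldhb and Slc16a3.

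Enolase, which makes phosphoenolpyruvate, showed opposite directions within 1 step. Eno1, the ubiquitous form, stood at 324 FPKM in Thy1.1- and 260 FPKM in Thy1.1+ cells, a ratio of 1.25 (1.198 to 1.297). Eno3, the form best known from muscle, stood at 24.6 and 54.5 FPKM from 399 and 888 reads. That made Eno3 2.22-fold higher in Thy1.1+ cells (1.97 to 2.502), the only difference past 2-fold in the pathway, at -1.12. Only 102 of the 12820 genes had a difference as low or lower. Eno2, the neuronal form, stood at 6.37 and 9.67 FPKM from 138 and 210 reads, 1.52-fold higher in Thy1.1+ cells (1.22 to 1.89). Summed over the 3 genes the step was close to level, at 355 and 324 FPKM, but this sum depends on the gene lengths used, as given below. Eno1 made up 91.3% of that sum in Thy1.1- and 80.2% in Thy1.1+ cells, and Eno3 6.93% and 16.8%. The ratio of Eno1 to Eno3 within a library does not depend on scaling. It was 13.2 in Thy1.1- and 4.76 in Thy1.1+ cells, 2.76 times as high (2.44 to 3.13, Woolf interval). After the upper quartile rescaling Eno3 lay within 2-fold, at a difference of -0.87.

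The promoters of the genes at both ends of the range are shown, namely the 3 genes with the largest differences and Eno3, the lowest. The windows run from 250 bases before to 50 bases after the gene start, 5′ to 3′ on the gene's strand, from RefSeq on build GRCm38.p6, while the authors' notes name mm9. They were searched on both strands for ACGTG, the core bound by hypoxia-inducible factors, and for CACGTG, the E-box bound by Myc, which contains the first motif. Capitals mark ACGTG or its reverse complement CACGT. The Tpi1 window lies at chr6:124814109-124814408 on the minus strand, the Pgam1 window at chr19:41911621-41911920 on the plus strand, the Pgk1 window at chrX:106186850-106187149 on the plus strand and the Eno3 window at chr11:70656926-70657225 on the plus strand.
Tpi1 promoter: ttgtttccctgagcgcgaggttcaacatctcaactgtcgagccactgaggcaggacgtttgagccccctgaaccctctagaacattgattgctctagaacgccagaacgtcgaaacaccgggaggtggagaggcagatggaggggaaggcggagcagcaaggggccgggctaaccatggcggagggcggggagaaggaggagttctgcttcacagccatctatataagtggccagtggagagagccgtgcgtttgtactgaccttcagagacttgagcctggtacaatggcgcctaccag
Pgam1 promoter: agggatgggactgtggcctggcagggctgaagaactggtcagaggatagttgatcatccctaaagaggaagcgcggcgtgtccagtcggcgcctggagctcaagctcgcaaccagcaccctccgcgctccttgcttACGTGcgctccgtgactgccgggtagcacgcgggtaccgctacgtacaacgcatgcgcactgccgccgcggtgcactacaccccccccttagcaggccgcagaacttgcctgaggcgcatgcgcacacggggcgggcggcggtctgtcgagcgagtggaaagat
Pgk1 promoter: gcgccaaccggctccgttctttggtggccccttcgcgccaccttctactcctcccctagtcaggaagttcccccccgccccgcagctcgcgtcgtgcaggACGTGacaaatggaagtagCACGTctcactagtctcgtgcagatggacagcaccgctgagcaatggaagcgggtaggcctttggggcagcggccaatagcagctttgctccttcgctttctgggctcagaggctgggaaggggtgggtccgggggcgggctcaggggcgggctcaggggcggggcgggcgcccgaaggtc
Eno3 promoter: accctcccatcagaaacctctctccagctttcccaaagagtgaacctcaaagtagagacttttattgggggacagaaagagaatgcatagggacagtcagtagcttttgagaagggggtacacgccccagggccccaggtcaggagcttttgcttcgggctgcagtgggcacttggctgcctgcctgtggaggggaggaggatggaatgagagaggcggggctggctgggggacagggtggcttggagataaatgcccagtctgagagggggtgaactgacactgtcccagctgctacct
The Pgam1 window holds ACGTG once, 114 bases before the gene start. The Pgk1 window holds it at 150 and 131 bases before the start, once on each strand. The Tpi1 and Eno3 windows hold neither motif, which says only that these letters are not in these windows. Promoters were found for 35 of the 36 genes, and 16 of the 35 held ACGTG. For the 10 of them with several listed starts a match in any window counted. Over all 27025 genes with a promoter the share was 21.8%, and it was 29.8% over the 8840 of them that passed the filter on FPKM. CACGTG was in 3 of the 35, against 8.09% and 12.1%. Of the 4 genes below 0, Slc16a3 held ACGTG.

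The lactate branch also held both directions. Ldha, the subunit of lactate dehydrogenase that dominates in glycolytic cells, stood at 402 and 292 FPKM, a ratio of 1.38 (1.33 to 1.43). Ldhb, the subunit typical of oxidative tissues such as heart, stood at 35.8 FPKM in Thy1.1- and 45.9 FPKM in Thy1.1+ cells, a ratio of 0.780 (0.702 to 0.867). After the upper quartile rescaling the interval of Ldhb covered equality, at a difference of -0.10. Ldha over Ldhb was 11.2 and 6.35, a ratio between libraries of 1.77 (1.58 to 1.97). Ldha thus made up 91.8% and 86.4% of the summed FPKM of both subunits.

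The lactate exporters went the opposite way from Ldha as a sum. Slc16a3, which encodes MCT4, the exporter of highly glycolytic cells, stood at 28.1 FPKM in Thy1.1- cells and 51.6 FPKM in Thy1.1+ cells. It was 1.84-fold higher in the latter (1.68 to 2.003), a difference of -0.85 that remained below 0, at -0.60, after the upper quartile rescaling. Slc16a1, which encodes the widely expressed transporter MCT1, stood at 13.7 and 12.3 FPKM, a ratio of 1.11 (1.02 to 1.21). Their sum was 41.8 and 63.9 FPKM, and Slc16a1 over Slc16a3 was 0.488 and 0.239, 2.04 times as high in Thy1.1- cells (1.81 to 2.30). Bsg, the chaperone basigin that carries both transporters to the membrane, stood at 106 and 97.8 FPKM, a ratio of 1.08 (1.02 to 1.15).

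**Figure D3:**
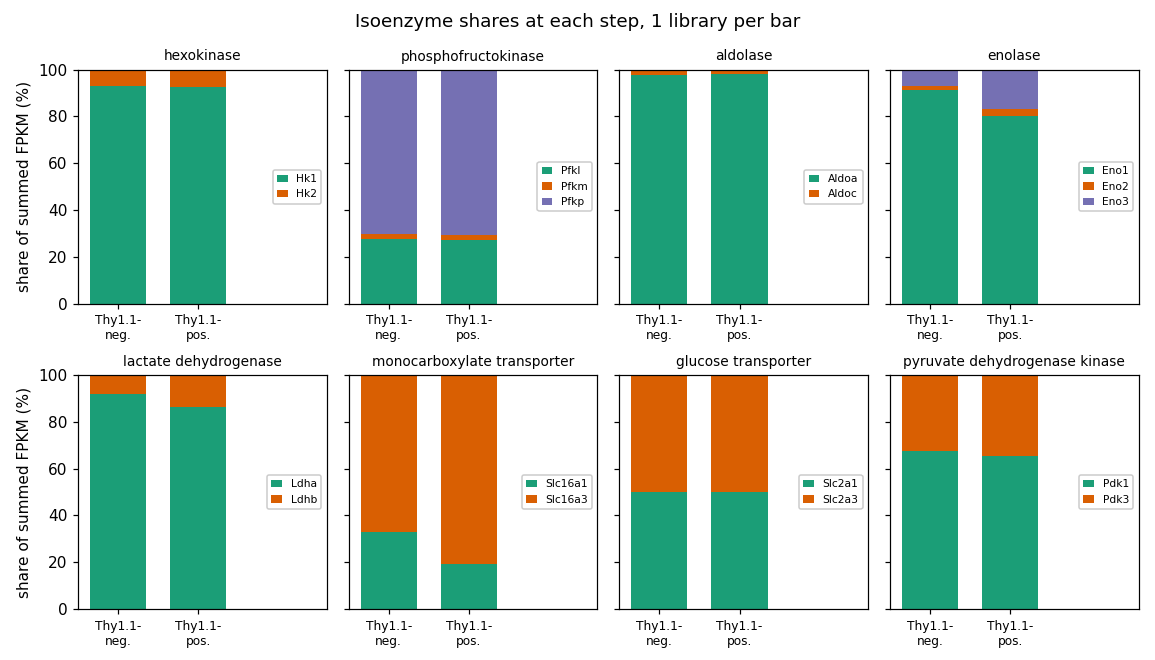
Share of the summed FPKM (y axis, %) taken by each isoenzyme or family member at 8 steps, in Thy1.1- (left bar) and Thy1.1+ cells (right bar), 1 library per bar with no error. Enolase, lactate dehydrogenase and the monocarboxylate transporters differ between bars, with Eno1 at 91.3% and 80.2%, Ldha at 91.8% and 86.4% and Slc16a1 at 32.8% and 19.3%.

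The other isoenzyme pairs differed less in their proportions between the libraries. Hk1 over Hk2 was 13.05 and 12.3, a ratio between libraries of 1.06 (0.930 to 1.21). Pfkp over Pfkl was 2.54 and 2.58, a ratio of 0.982 (0.905 to 1.07). Aldoa over Aldoc had a ratio of 0.883 (0.656 to 1.19) and Pdk1 over Pdk3 1.11 (0.942 to 1.302). All 4 intervals covered 1, which does not show equal proportions. Shares between genes depend on the length used. The deposited values were divided by a length close to the mean of each gene's annotated transcripts for many genes. With reads per base of merged exons instead, a setting chosen after the data were seen, Eno1 took 80.1% and 60.2%, Ldha 83.9% and 74.7% and Slc16a1 62.7% and 45.1%. Likewise Slc2a1 took 61.1% and 60.9% of its pair, Hk1 83.4% and 82.6%, and Pdk1 54.4% and 51.9%. The direction of these shares between libraries was the same with either length at each of these steps. That was fixed in advance, because a gene's length is the same in both libraries. Which lactate exporter stood higher in Thy1.1- cells turned with the length. The summed enolase step turned too, to slightly lower in Thy1.1- cells with merged exons.

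All 7 pentose phosphate genes had a difference above 0, with a median of 0.31, and 6 of the 7 intervals lay above 1, where 55.1% and 27.4% of all genes did so. In the oxidative arm, G6pdx, the glucose 6-phosphate dehydrogenase that commits glucose to the pathway and makes NADPH, stood at 28.2 and 21.7 FPKM, a ratio of 1.30 (1.15 to 1.46). Pgls, the lactonase after it, stood at 22.6 and 18.95 FPKM, a ratio of 1.19 (1.05 to 1.35). Pgd, the other NADPH-yielding dehydrogenase, stood at 39.9 and 33.4 FPKM, a ratio of 1.19 (1.097 to 1.301). The oxidative arm was thus within a narrow band of ratios. In the non-oxidative arm, which exchanges sugars with glycolysis, the range was wider. Taldo1, transaldolase, stood at 97.5 and 66.6 FPKM, a ratio of 1.46 (1.36 to 1.58). Tkt, transketolase, stood at 107 and 80.2 FPKM, a ratio of 1.33 (1.26 to 1.41). Rpia, the ribose 5-phosphate isomerase, stood at 27.8 and 22.3 FPKM, a ratio of 1.25 (1.14 to 1.37). Rpe, the epimerase of the same arm, stood at 15.3 and 13.5 FPKM, with a ratio of 1.13 (0.9996 to 1.28) that just covered 1. Taldo1 and Tkt, which lead back to glycolysis, were both the most abundant of the 7 and those with the largest ratios.

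For pyruvate entry, subunits of the complex were nearly level with the deposited scaling. Pdha1 and Pdhb encode the subunits of the first enzyme of pyruvate dehydrogenase, and Dlat its acetyltransferase core. Pdha1 stood at 91.1 and 88.1 FPKM, a ratio of 1.03 (0.971 to 1.103). Pdhb stood at 62.2 and 59.9 FPKM, a ratio of 1.04 (0.969 to 1.11). Dlat stood at 26.2 and 25.8 FPKM, a ratio of 1.01 (0.901 to 1.14). Pdk1 and Pdk3, among the kinases that inhibit the complex, stood higher in Thy1.1- cells. Pdk1, a known target of hypoxia-inducible factor, stood at 46.3 and 33.5 FPKM, a ratio of 1.38 (1.28 to 1.49), and Pdk3 at 22.1 and 17.7 FPKM, a ratio of 1.25 (1.08 to 1.44). Pdk1 over Pdha1 within a library was 0.508 and 0.380, 1.33 times as high in Thy1.1- cells (1.21 to 1.47). Of the mitochondrial pyruvate carrier, Mpc1 stood at 16.6 and 15.3 FPKM (ratio interval 0.885 to 1.32). Its partner Mpc2 stood at 12.2 and 9.68 FPKM, a ratio of 1.26 (1.07 to 1.48).

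**Figure D4:**
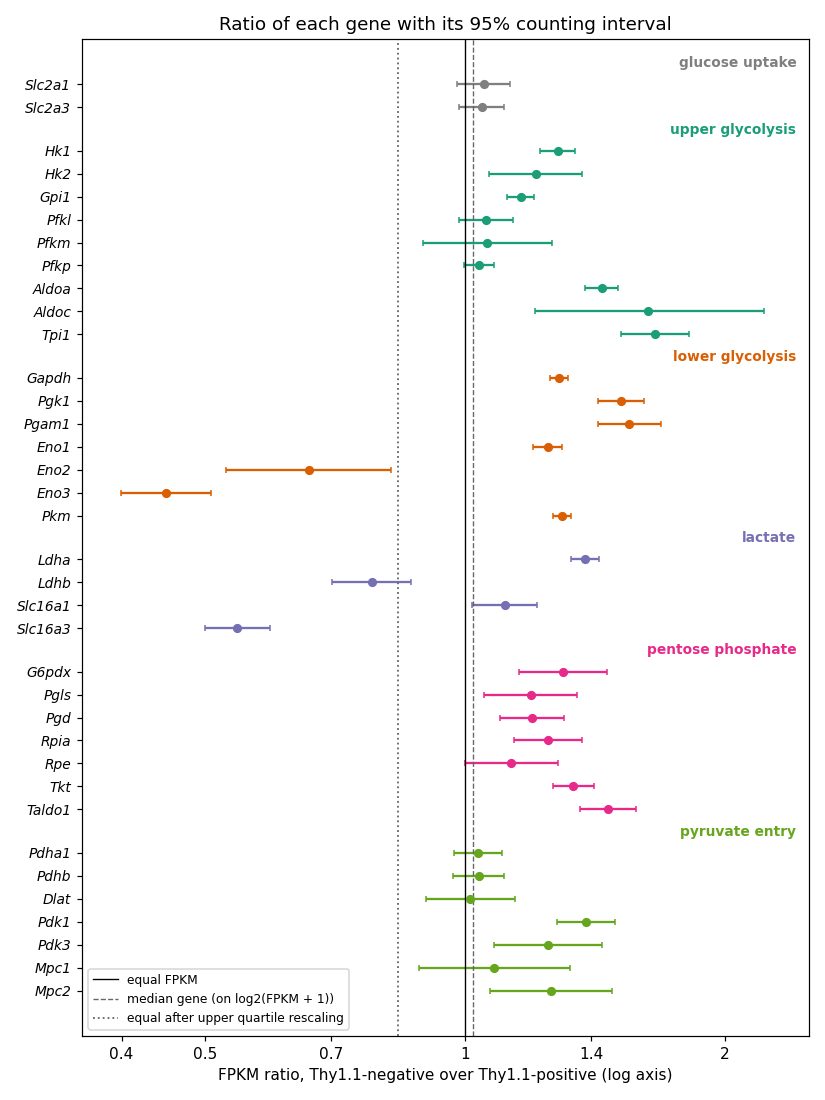
FPKM ratio, Thy1.1- over Thy1.1+ (x axis, log scale), of each of the 36 genes by role, with 95% counting intervals, 1 library per population. The solid line marks equal FPKM, the dashed line the median gene and the dotted line, at 0.837, equality after upper quartile rescaling, and Eno2, Eno3, Ldhb and Slc16a3 lie left of the solid line.

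Genes of the same pathways outside the 36 stood on both sides of 0. Of 60 listed, 59 were in the table and 37 passed the filter, 17 with a difference above 0 and 20 below, with a median of -0.05. Over all genes 55.1% were above 0 and the median was 0.03. After the upper quartile rescaling 33 were above 0 and the median was 0.17, still below the 0.26 of all genes. On the log2(FPKM + 1) scale none passed 2-fold under either scaling. Slc2a6, a lysosomal hexose transporter, was past 1.5-fold at 3.43 and 1.66 FPKM, a ratio of 2.06 (1.47 to 2.93), and it passed 2-fold with a pseudocount of 0.1. Myc, a transcriptional activator of glycolytic genes, was past it in the other direction at 26.1 and 41.8 FPKM, a ratio of 0.625 (0.573 to 0.681). Hif1a, the oxygen-regulated activator of the same enzymes, stood at 212 and 159 FPKM, a ratio of 1.33 (1.29 to 1.38). Pfkfb3, which makes the activator of phosphofructokinase, stood at 34.4 and 31.4 FPKM, a ratio of 1.095 (1.01 to 1.18). Tigar, which degrades that activator, stood at 4.23 and 4.86 FPKM (0.740 to 1.02). The remaining subunits of pyruvate dehydrogenase were level like those above, with Dld at 39.6 and 39.5 FPKM (0.935 to 1.07) and Pdhx at 7.97 and 8.44 FPKM (0.794 to 1.12). Pdk2 had a ratio of 0.841 (0.675 to 1.05), which covered 1 and turned above it after the upper quartile rescaling, as did those of Pdhx and Tigar. Pdk4 was under 1 FPKM in both libraries. In all, 20 of the 59 were under 1 FPKM in both libraries. Pgam2, the muscle form of phosphoglycerate mutase, was not, at 4.75 and 4.99 FPKM, a gene named here after its values were seen.

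Several of the 36 genes have near-identical copies or overlapping neighbours, and how the authors' counting treated such reads and strand is not given in the sources used here. Of each gene's 50-base transcript words, over 10% occurred in other annotated genes for 13 of the 36, with 53.9% for Pgk1, 36.2% for Pgam1, 26.3% for Mpc1, 25.99% for Eno1, 25.8% for Pkm, 25.1% for Gapdh and 20.99% for Ldhb. Values of these genes are uncertain for that reason. Eno3, Slc16a3 and Slc16a1 shared no such word, and Tpi1 shared 4.18%. Over the other 23 genes, a setting chosen after the data were seen, 20 had a difference above 0 and the median was 0.25. Exons of another gene covered over 10% of the exon length of 8 of the 36, among them Pgls with 20.6% and Mpc1 with 23.1%. Across the 36 genes the difference had a Spearman rho of 0.24 with mean FPKM and -0.07 with gene length, given as a description of points that share both libraries.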

How the data were processed

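Libraries were prepared from total RNA of the sorted cells with a NEBNext Ultra kit, as the labels' protocols state. What the authors deposited is 1 FPKM column for each population, with Ensembl gene IDs. Bowtie2 2.2.3, TopHat2 2.0.12, HTSeq 0.6.1 and the mouse build mm9 are named in the submitters' processing notes, without settings. Symbols, lengths, exons and transcript sequences came from GENCODE M21 (GRCm38) and matched 40254 of 41592 IDs (96.8%).

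FPKM values take no count model. For all 23442 genes detected in both libraries the ratio of FPKM values was one of whole numbers, times a common factor of 1.003, within a relative tolerance of 2e-11. Library totals came from genes whose implied length equalled their merged exon length. For each gene the smallest whole numbers were multiplied until they gave a whole length nearest to its mean annotated transcript length, and 11 of the 36 genes needed a multiple above 1. For 19 of the 36 the length was within 1 base of that mean. Recovered reads summed to 101% of the total in both libraries. Intervals hold no variation between animals, sorts or preparations and treat PCR copies as independent. The recovery and intervals were run on simulated libraries with counting error only and every length set to the mean annotated length. That run cannot show wrong multiples for genes whose length departs from that mean, nor variation beyond counting.

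All 36 members could be named. Of the other pathway genes, those past 1.5-fold and a fixed set of partners were named. Pgam2, H6pd, Prps1, Prps2, Rbks, Shpk and Tktl1 were added after their values were seen. The members and lists were chosen with earlier results of these data known. Alternatives were other pseudocounts, filters, fold rules and rescalings. Python 3.11.15 with pandas 2.3.3, numpy 2.4.6 and scipy 1.17.1 was used.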

Additional observations from a re-analysis of the deposited data

How the results depend on the processing

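The absence of any gene 2-fold higher held with a pseudocount of 0.1 or 5. A pseudocount cannot change the sign of a difference, so the count of 32 genes above 0 was fixed there. Leaving out the filter could change neither result, because all 36 genes passed it. Both results also held after bringing the libraries to the same sum and after the upper quartile rescaling. The upper quartile rescaling raises every ratio, so the count above 0 could only stay or rise there. With a mean FPKM of at least 5 Aldoc drops out and 31 of 35 lay above 0, and centring on the median gene or leaving out the 100 highest genes gave 31 of 36. Eno3 left the 2-fold rule after the upper quartile rescaling, giving 0 genes lower, and with a rule of 4-fold, also 0. At 1.5-fold 3 genes were higher and 2 lower, and over the pseudocounts and rescalings, tried for this rule after the data were seen, the counts ran from 1 to 13 higher and 2 to 3 lower. The median of the 36 genes was 0.49 after the upper quartile rescaling, which multiplies every ratio by 1.19, and 0.31 over the 27 genes at 20 FPKM or more on average. Counts over all genes, 247 higher and 148 lower, depended more on the setting. They were 402 and 293 with a pseudocount of 0.1, and 72 and 19 with 5. A mean FPKM of at least 5 gave 107 and 60, and the upper quartile rescaling 398 and 82. Rules of 1.5-fold and 4-fold gave 745 and 493, and 31 and 9. With the smallest whole numbers taken as reads, 23 of the 36 intervals were clear of 1 in place of 26, and those of Aldoc, Eno2 and Mpc2 covered it. After the upper quartile rescaling 35 were clear, 32 above and 3 below, and that of Ldhb covered 1. No paired analysis was possible because each population has 1 library. Depth limits Aldoc and Eno2 most, with 72 to 210 reads per library.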

Other observations

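Pathways that leave glycolysis were described with lists chosen after results of these data were known, with the same measures and no test. In serine synthesis, which starts from 3-phosphoglycerate, Psat1, the phosphoserine aminotransferase, stood at 38.4 FPKM in Thy1.1- and 24.1 FPKM in Thy1.1+ cells, a ratio of 1.596 (1.43 to 1.78). Phgdh, the first enzyme of that branch, stood at 82.6 and 73.4 FPKM, a ratio of 1.13 (1.04 to 1.22). Shmt2, the mitochondrial enzyme that takes serine onward into one-carbon metabolism, stood at 20.5 and 25.7 FPKM, a ratio of 0.797 (0.728 to 0.872).

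The hexosamine branch, which makes UDP-N-acetylglucosamine for glycosylation from fructose 6-phosphate, had all 4 listed genes below 0, where 44.9% of all genes were, and the intervals of 2 of the 4 lay below 1. Uap1, its last enzyme, stood at 39.9 FPKM in Thy1.1- and 68.1 FPKM in Thy1.1+ cells, a ratio of 0.585 (0.543 to 0.630). Gnpnat1, the acetyltransferase earlier in the branch, stood at 9.99 and 15.1 FPKM, a ratio of 0.660 (0.588 to 0.741). Gfpt1, the entry enzyme, was close to level at 41.4 and 41.95 FPKM (0.919 to 1.06). After the upper quartile rescaling Gfpt1 and Pgm3 turned above 0, while Uap1 and Gnpnat1 stayed below it. Of the genes of the glycerol phosphate shuttle, which carries cytosolic NADH into mitochondria, Gpd1l had a ratio of 1.46 (1.33 to 1.62), while Gpd1 had one of 0.762 (0.495 to 1.16) and Gpd2 of 0.961 (0.833 to 1.11), with a median difference of -0.05. In the malate-aspartate shuttle, 5 of 7 genes were above 0, where 55.1% of all genes were. Slc25a12, an aspartate-glutamate carrier, had a ratio of 1.34 (1.22 to 1.47), Got1 of 0.905 (0.872 to 0.940) and Mdh1 of 0.882 (0.839 to 0.928). Those of Got1 and Mdh1 turned above 1 after the same rescaling, as did that of Gpd2.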
